A study of Mus musculus with 12 samples.

Results

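The 38 genes of skeletal muscle described here were followed through RNA sequencing libraries of mouse retina, out of 27179 gene IDs counted in each library. They were selected on high raw counts in the control libraries at 3 months of age, so their level in that group chose them and any comparison with it is a description without a test. Retinas came from mice labelled Control or Glia-ABCA1KO, with ABCA1, a cholesterol and phospholipid exporter, deleted in glia (KO below stands for this label), at 3 and at 12 months of age. Each of the 4 groups had 3 libraries. The protocol calls the donors Astro-KO mice, and neither what drives the deletion nor the alleles of the controls is given in the sources used here. Whether libraries of 1 group come from separate animals is not labelled, so p-values measure only the spread between these samples.

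Skeletal muscle contracts when myosin heads of the thick filament pull on the actin of the thin filament. Calcium released from the sarcoplasmic reticulum binds troponin C and moves tropomyosin away from the myosin sites on actin, and calcium pumps then clear it. Fast and slow fibres use different copies of many of these proteins, so the copies present tell which kind of fibre an RNA sample holds. The retina has no skeletal muscle of its own, while the muscles that move the eye attach to the outside of the globe. In whole tissue, fewer cells of a type and less RNA per cell cannot be told apart.

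All 38 members were found by Entrez gene ID. By textbook class, 16 belong to fast fibres, 6 to slow fibres and 16 to both. A member was said to have a retinal baseline where its median over the 9 libraries outside the control group at 3 months reached 1 CPM (counts scaled to library size, with TMM factors). By that limit 20 members had a baseline and 18 had none. Actn2 lay just under the limit at a median of 0.911 CPM in those 9 libraries, and Tcap and Ckm just above it at 1.15 and 1.30 CPM.

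Libraries held 29027099 to 30438026 counts, so raw counts can be set side by side. Among the members' counts from 1 to 20, 77.4% of 106 were even, so both reads of a pair were apparently counted and a low count means fewer fragments than its number. Control replicate 2 at 3 months stood apart from its group over all genes, with a chi-square per degree of freedom of 40.7 and 39.7 against the other 2. In KO retina at 12 months replicate 1 stood apart too, with 20.5 and 23.6 against 4.99 between the other 2, and without it 0 members were called in both tested comparisons given below. Without control replicate 2 the sum of the members without a baseline described next averaged 80.9 CPM in its group instead of 81.8, and 26 instead of 25 members stood above all 9 others. Abca1, the targeted gene, was at 22.7 ± 3.34 CPM in control and 26.3 ± 1.78 CPM in KO retina at 3 months, and at 30.7 ± 2.66 and 36.3 ± 7.90 CPM at 12 months (SD, n = 3), so the mean was higher in KO than in control at both ages. Other retinal cells also express it, and which exons were deleted is not labelled, so this level does not check the KO label.

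The 18 members without a baseline summed to 2592, 2497 and 2206 counts in the control libraries at 3 months. The same genes summed to 99, 194 and 95 counts in KO retina at 3 months, to 117, 78 and 78 in control retina at 12 months and to 124, 119 and 112 in KO retina at 12 months. No library of the other 9 came near the control group at 3 months. The sum was 81.8 ± 7.29 CPM (SD, n = 3) in that group, 21.5-fold the mean of the other 9. It was 4.40 ± 1.95 CPM in KO retina at 3 months, 3.05 ± 0.738 CPM in control and 3.97 ± 0.150 CPM in KO retina at 12 months (SD, n = 3 each). All 38 members together took 0.0332%, 0.0335% and 0.0324% of the counts in the control libraries at 3 months and 0.0168% to 0.0194% in the others.

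All 3 control libraries at 3 months lay above all 9 others for 25 of the 38 members, and for 24 of the 36 that passed the filter on low counts. Over all 16475 genes tested, 208 did so, or 1.26%. The members were chosen in that contrast, so nothing is read from their count. Of the members without a baseline 16 of 18 stood above all others, and of those with a baseline 9 of 20. By fibre class it was 11 of 16 fast, 3 of 6 slow and 11 of 16 shared members.

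**Figure D1:**
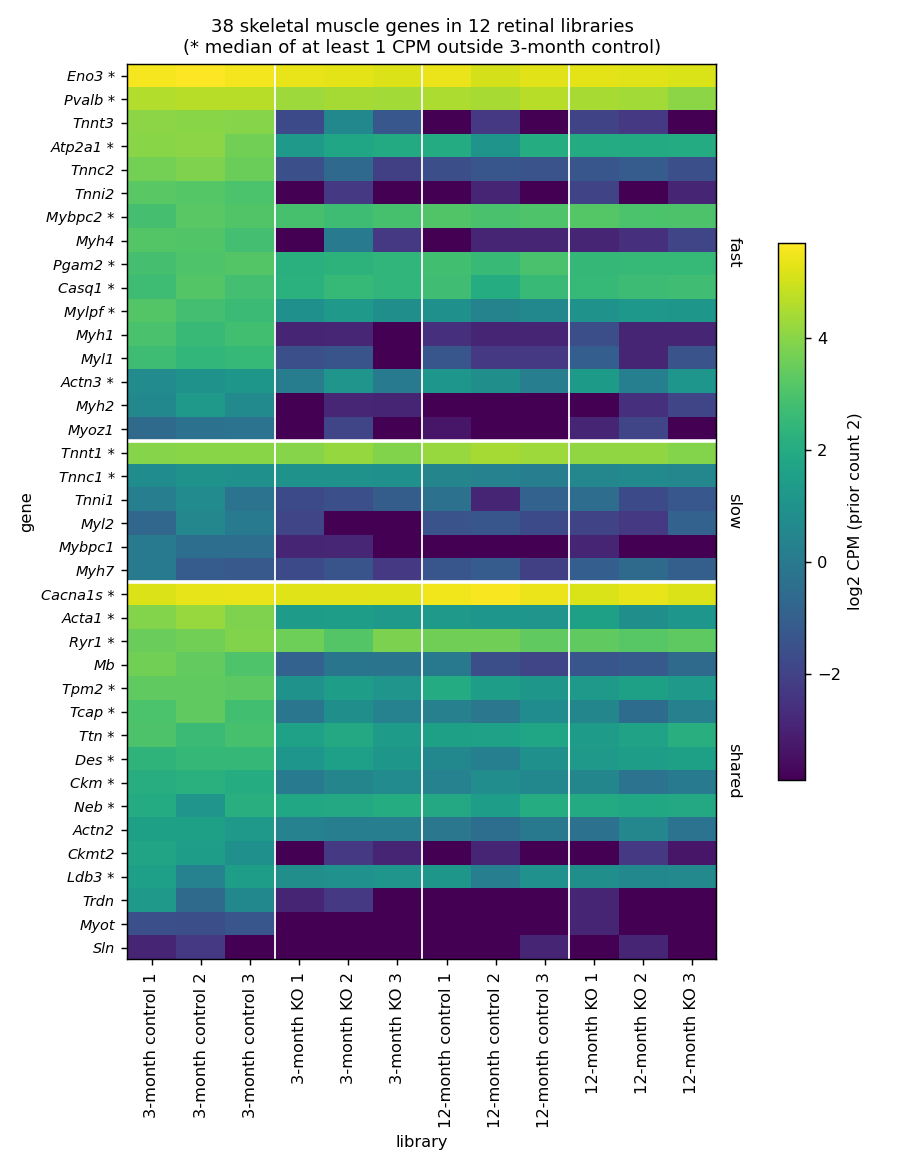
Log2 CPM (prior count 2, colour scale) of the 38 muscle genes (rows, by fibre class, a star marks a retinal baseline) in the 12 libraries (columns, by group). The 3 control columns at 3 months are brighter than the other 9 for 25 genes, and the starred genes keep a level in every library.

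The upstream sequence of 4 members is shown because these genes encode the actin, a myosin heavy chain, the creatine kinase and a troponin of muscle and stood above all other libraries. They were chosen after the motif search, to show windows that hold motifs marked here and a window that holds none of those marked. Each is the 250 bases before the start of the gene in RefSeq (GRCm38.p6), 5′ to 3′ on the gene's strand. Acta1 is at chr8:123894776-123895025 on the minus strand, Myh4 at chr11:67237562-67237811 on the plus strand, Ckm at chr7:19410844-19411093 on the plus strand and Tnnc2 at chr2:164779735-164779984 on the minus strand. Capitals mark CAGCTG, an E-box of the kind that myogenic factors bind, TATAAA on either strand, and the CArG box, the site known for serum response factor.
Acta1: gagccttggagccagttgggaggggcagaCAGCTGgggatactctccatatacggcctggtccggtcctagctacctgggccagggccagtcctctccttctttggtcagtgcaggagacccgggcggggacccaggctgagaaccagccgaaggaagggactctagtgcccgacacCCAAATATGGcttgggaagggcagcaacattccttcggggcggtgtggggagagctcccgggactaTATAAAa
Myh4: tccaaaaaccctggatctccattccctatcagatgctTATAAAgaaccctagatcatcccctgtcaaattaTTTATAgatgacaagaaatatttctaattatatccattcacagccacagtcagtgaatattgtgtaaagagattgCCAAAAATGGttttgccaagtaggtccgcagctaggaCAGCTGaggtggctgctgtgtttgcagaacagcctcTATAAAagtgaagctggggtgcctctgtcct
Ckm: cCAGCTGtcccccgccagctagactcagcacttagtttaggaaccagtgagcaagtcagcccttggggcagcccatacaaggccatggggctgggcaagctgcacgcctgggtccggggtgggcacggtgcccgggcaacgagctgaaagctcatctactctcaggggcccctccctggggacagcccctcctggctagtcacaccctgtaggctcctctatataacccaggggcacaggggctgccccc
Tnnc2: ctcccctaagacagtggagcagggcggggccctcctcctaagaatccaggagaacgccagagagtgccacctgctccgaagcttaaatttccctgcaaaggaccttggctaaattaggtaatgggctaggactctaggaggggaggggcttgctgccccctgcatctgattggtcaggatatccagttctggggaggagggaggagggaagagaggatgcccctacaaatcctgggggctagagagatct

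Acta1 and Myh4 each held CAGCTG, a CArG box and TATAAA, Ckm held CAGCTG alone, and Tnnc2 held none of them. In Acta1 the CArG box lay 73 to 64 bases before the start and CAGCTG 221 to 216 bases before it. In Myh4 they lay 104 to 95 and 67 to 62 bases before it. Of the 38 members 29 had at least 1 such window of 250 bases, 36 windows in all, since some genes have several annotated starts. Each motif was searched on both strands, and a gene was counted where any of its windows held it.

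CAGCTG was in the windows of 16 of the 29 member genes (55.2%) and of 3979 of the 27025 genes with a window (14.7%). The wider E-box CANNTG, which includes CAGCTG, was in 86.2% of member genes and 69.3% of all genes. TATAAA was in 20.7% against 14.3%, the CArG box in 10.3% against 1.62%, and the MEF2 box in 1 member, Ttn (3.45% against 0.592%). CAGCTG was in 13 of the 19 genes with a window that stood above all other libraries and in 3 of the 10 that did not. That last split rests on the values that chose the members, so nothing is read from it. All these shares describe letters in a window and no test was made of them.

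Among thin filament genes, the fast troponins had few counts outside control retina at 3 months, and skeletal actin had a baseline and an excess. Tnnt3, fast troponin T, which ties troponin to tropomyosin, had 475, 474 and 467 counts there. It had 7, 42 and 10 counts in KO retina at 3 months, 0, 4 and 0 in control and 6, 4 and 0 in KO retina at 12 months. The groups did not overlap, and the 42 counts of KO replicate 2 were the highest of the other 9. Its level was 15.9 ± 0.254 CPM (SD, n = 3), 57.6-fold the mean of the other 9 libraries.

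Tnnc2, fast troponin C, the calcium sensor, had 378, 429 and 344 counts in control retina at 3 months. Elsewhere it had 8, 17 and 5 in KO retina at 3 months, 8, 10 and 9 in control and 10, 12 and 8 in KO retina at 12 months. KO replicate 2 was again the highest of the others. Tnni2, fast troponin I, the subunit that blocks contraction at rest, had 274, 269 and 235 counts in that group. It had 0, 4 and 0 in KO retina at 3 months, 0, 2 and 0 in control and 6, 0 and 2 in KO retina at 12 months, so 5 of the other 9 libraries held none.

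Acta1, skeletal alpha-actin, had a baseline in every library. Its counts were 448, 547 and 427 in control retina at 3 months, 77, 80 and 69 in KO retina at 3 months, 71, 63 and 62 in control and 88, 53 and 63 in KO retina at 12 months. The control group at 3 months was apart from the rest, at 15.9 ± 2.12 CPM (SD, n = 3), 6.81-fold the mean of the others. Tpm2, beta-tropomyosin, had 301, 302 and 290 counts in that group. It had 59, 78 and 62 in KO retina at 3 months, 118, 79 and 66 in control and 71, 86 and 69 in KO retina at 12 months, again without overlap.

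Tnnt1, slow troponin T, did not share this pattern. It had 454, 473 and 472 counts in control retina at 3 months, 463, 523 and 437 in KO retina at 3 months, 555, 628 and 571 in control and 516, 512 and 446 in KO retina at 12 months. Control retina at 3 months lay inside the range of the others, and control retina at 12 months was the highest group. The other slow troponins were low: Tnni1 had 23 to 47 counts in control retina at 3 months and 2 to 22 elsewhere. Tnnc1, the troponin C of slow fibres and heart, had 48 to 58 and 32 to 59, so its groups overlapped. Neb, nebulin, which runs along the thin filament, had 62 to 128 and 79 to 121 and overlapped too.

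In the thick filament, the 3 adult fast myosin heavy chains had few counts outside control retina at 3 months. Myh2, Myh1 and Myh4 lie side by side at chr11:67171027-67197517, chr11:67200102-67224577 and chr11:67237812-67260447. They are near copies of one another, and how the counting treated reads with several alignments is not given, so the split between them is uncertain. Myh4, the heavy chain of the fastest fibres, had 256, 255 and 211 counts there. It had 0, 29 and 4 in KO retina at 3 months, 0, 2 and 2 in control and 2, 3 and 6 in KO retina at 12 months. KO replicate 2 at 3 months held most of the counts found outside the control group at 3 months.

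Myh1 had 224, 182 and 204 counts in control retina at 3 months. It had 2, 2 and 0 in KO retina at 3 months, 3, 2 and 2 in control and 8, 2 and 2 in KO retina at 12 months. The lowest library of the first group had 182 counts and the highest of the rest had 8. Myh2, the heavy chain of fast oxidative fibres, was lower, with 42 to 72 counts against 0 to 6. Myh7, the slow heavy chain, had 29, 12 and 11 counts against 4 to 18, and its groups overlapped.

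Of the summed counts of Myh1, Myh2 and Myh4, Myh4 had 49.0%, 50.1% and 45.8% in the 3 control libraries at 3 months. Myh1 had 42.9%, 35.8% and 44.3%, and Myh2 had 8.05%, 14.1% and 9.98%. The order of the heavy chains was the same in all 3 libraries, with Myh4 and Myh1 close in replicate 3. In KO replicate 2 at 3 months Myh4 had 87.9% of 33 counts.

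The light chains behaved alike in having their highest 3 libraries in the same group. Myl1, the essential light chain of fast fibres, had 193, 162 and 169 counts in control retina at 3 months. It had 8, 9 and 0 in KO retina at 3 months, 10, 4 and 4 in control and 13, 2 and 9 in KO retina at 12 months. Mylpf, the fast regulatory light chain, had a baseline. Its counts were 259, 208 and 187 in control retina at 3 months, 54, 70 and 53 in KO retina at 3 months, 54, 37 and 42 in control and 59, 67 and 65 in KO retina at 12 months. Both were without overlap. Myl2, the slow and ventricular regulatory light chain, had 16 to 42 counts against 0 to 14.

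The myosin binding proteins C, which brace the thick filament, parted. Mybpc2, the fast copy, had 213, 281 and 253 counts in control retina at 3 months, 223, 192 and 217 in KO retina at 3 months, 251, 228 and 247 in control and 270, 232 and 236 in KO retina at 12 months. Its 4 groups overlapped around one level. Mybpc1, the slow copy, had 28, 20 and 20 counts in control retina at 3 months and 0 to 2 elsewhere.

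Where fast and slow copies of one protein were set side by side, levels were divided by the summed exon length of the GENCODE annotation of the same build. The excess is the mean in control retina at 3 months minus the mean of the other 9 libraries, in CPM per kb. It was 17.97 for Tnnc2 and 0.394 for its slow copy Tnnc1. For troponin I it was 9.28 (Tnni2) and 0.447 (Tnni1), and for troponin T 13.3 (Tnnt3) and -1.13 (Tnnt1). The regulatory light chains gave 5.62 (Mylpf) and 0.475 (Myl2). In these 4 pairs the fast copy had the larger excess. In the other pairs the slow Mybpc1 had 0.170 beside 0.148 for Mybpc2, and Actn2, alpha-actinin of all fibres, had 0.572 beside 0.0809 for the fast Actn3. Tnnc1, Tnnt1, Mybpc2 and Actn3 overlapped between control retina at 3 months and the other 9 libraries, so the sign of their excess is uncertain. For Mybpc2 the excess was 0.533 CPM, with an SD of 1.09 CPM in control retina at 3 months and 0.680 CPM in the other 9. Mybpc1 and Mybpc2 are therefore not ranked.

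**Figure D2:**
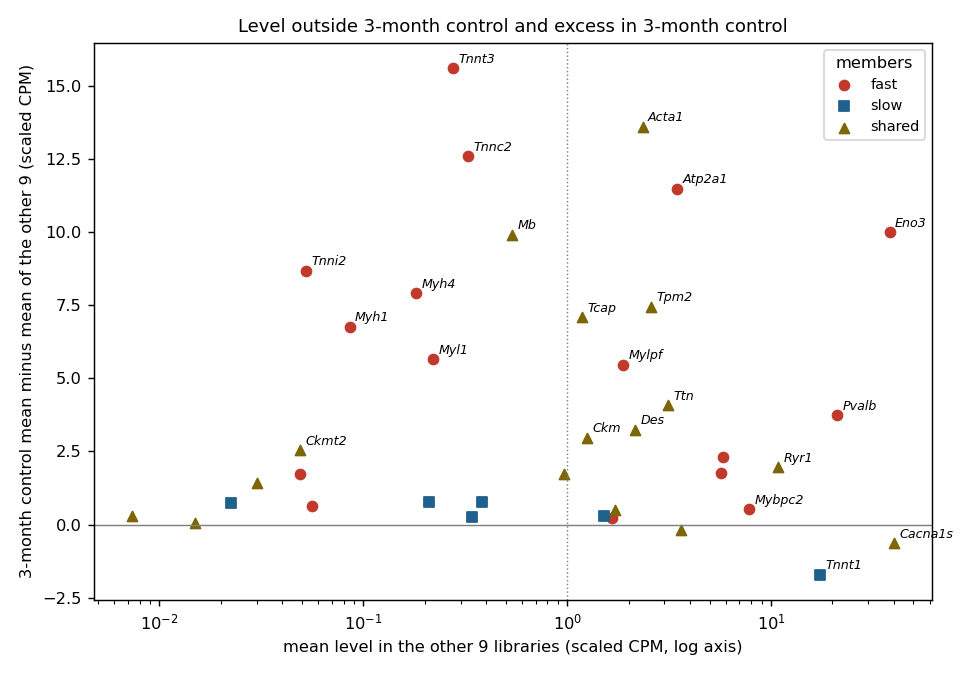
Mean level in the 9 libraries outside control retina at 3 months (x axis, CPM, log scale, dotted line at 1 CPM) against the excess of control retina at 3 months over it (y axis, CPM), 1 point per member by fibre class. Tnnt3, Acta1, Tnnc2 and Atp2a1 are at the top, and Tnnt1, Cacna1s and Neb lie below 0.

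Of the genes of the Z-disc and the sarcomere's scaffold, Ttn, Tcap and Des had a baseline and stood higher in control retina at 3 months, while Actn2, Myoz1 and Myot stood higher without a baseline and Actn3 and Ldb3 did not stand apart. Ttn, titin, the elastic spring of the sarcomere, had 236, 185 and 223 counts there. It had 88, 107 and 75 in KO retina at 3 months, 86, 88 and 98 in control and 78, 91 and 127 in KO retina at 12 months. The first group did not overlap with the rest, at 7.23 ± 0.931 CPM (SD, n = 3), 2.30-fold their mean.

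Tcap, telethonin, which caps titin at the Z-disc, had 229, 304 and 204 counts in control retina at 3 months. It had 25, 52 and 36 in KO retina at 3 months, 34, 26 and 49 in control and 41, 19 and 34 in KO retina at 12 months. It was 6.98-fold the mean of the other 9 and without overlap. Des, desmin, the intermediate filament that links Z-discs and is also made by smooth muscle and pericytes, had 149, 165 and 167 counts in control retina at 3 months. It had 63, 81 and 65 in KO retina at 3 months, 43, 33 and 54 in control and 72, 80 and 84 in KO retina at 12 months, so control retina was the highest group at 3 months and the lowest at 12.

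Among the low members of the Z-disc, Actn2, which crosslinks actin there, had 85, 85 and 70 counts against 20 to 41. Myoz1, a fast fibre protein that binds calcineurin, had 18 to 23 against 0 to 6, and Myot, myotilin, had 8 to 10 against 0 to 2. Actn3, the fast alpha-actinin, with 47 to 65 against 30 to 75, and Ldb3, a Z-disc adaptor, with 36 to 82 against 32 to 66, overlapped with the rest.

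Of the genes that handle calcium, the pump and the less abundant Trdn stood above all other libraries, while the channels, Casq1 and Pvalb overlapped with the rest. Atp2a1, the calcium pump of fast fibres, had 464, 491 and 377 counts in control retina at 3 months. It had 71, 96 and 114 in KO retina at 3 months, 117, 60 and 121 in control and 119, 114 and 115 in KO retina at 12 months. The first group was apart from the rest at 14.9 ± 2.05 CPM (SD, n = 3), 4.31-fold their mean.

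Cacna1s, the voltage sensor of the muscle membrane, had 1078, 1220 and 1237 counts in control retina at 3 months. It had 1112, 1118 and 1120 in KO retina at 3 months, 1339, 1429 and 1275 in control and 1087, 1196 and 1084 in KO retina at 12 months. Ryr1, the calcium release channel that it opens, had 330, 378 and 437 counts, then 355, 251 and 406, 364, 363 and 301, and 306, 269 and 290 in the same order of groups. Neither stood apart in control retina at 3 months, and Cacna1s was highest in control retina at 12 months.

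Casq1, calsequestrin, which stores calcium in the reticulum of fast fibres, had 192, 257 and 213 counts in control retina at 3 months, 137, 165 and 158 in KO retina at 3 months, 199, 120 and 173 in control and 172, 190 and 198 in KO retina at 12 months. The highest library of control (199) and of KO retina (198) at 12 months lay inside the range of the first group. Pvalb, parvalbumin, the calcium buffer of fast fibres that amacrine cells of the retina also make, had 714, 753 and 748 counts, then 585, 612 and 609, 689, 641 and 756, and 660, 616 and 474 in the same order. Its groups overlapped. Trdn, triadin, which anchors calsequestrin, had 68, 18 and 43 counts against 0 to 4, and Sln, sarcolipin, an inhibitor of the pump, had 2, 4 and 0 against 0 to 2, so almost nothing of it was counted.

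Among genes of energy supply, Mb, myoglobin, the oxygen store of muscle, had 369, 314 and 247 counts in control retina at 3 months. It had 14, 24 and 24 in KO retina at 3 months, 28, 8 and 6 in control and 10, 11 and 18 in KO retina at 12 months. Its groups did not overlap, and the mean in the first was 19.5-fold that of the others. Ckmt2, the creatine kinase of muscle mitochondria, had 95, 82 and 54 counts against 0 to 4, and Ckm, its cytosolic partner, 122, 134 and 121 against 23 to 50.

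Eno3, the muscle enolase of glycolysis, had the most counts of the members in control retina at 3 months, with 1393, 1545 and 1362 in control retina at 3 months, 1229, 1144 and 1082 in KO retina at 3 months, 1283, 1006 and 1136 in control and 1193, 1112 and 1033 in KO retina at 12 months. The first group lay above the rest by 1.26-fold in the mean. Pgam2, muscle phosphoglycerate mutase, had 215, 246 and 261 counts, then 134, 142 and 156, 205, 180 and 225, and 170, 170 and 167 in the same order. The highest library of control retina at 12 months (225) lay inside the range of control retina at 3 months.

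Most of the abundant members without a baseline took similar shares of their sum in the 3 control libraries at 3 months. The share of Mb fell from replicate 1 to replicate 3, and some low members differed more for their size. Tnnt3 took 18.3%, 18.98% and 21.2%, Tnnc2 14.6%, 17.2% and 15.6%, and Mb 14.2%, 12.6% and 11.2%. Tnni2 took 10.6%, 10.8% and 10.7%. Trdn took 2.62%, 0.721% and 1.95%, Myl2 0.617%, 1.68% and 1.31%, and Myh7 1.12%, 0.481% and 0.499%. Counts of Trdn and Mb varied most for their size, with a chi-square per degree of freedom of 15.5 and 12.5 over the 3 libraries, against 0.224 for Tnnt3. These values treat each count as independent, and counting both reads of a pair raises them. In KO replicate 2 at 3 months, the next highest library with a sum of 194, Tnnt3 took 21.6%, Myh4 14.9% and Tnni2 2.06%.

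**Figure D3:**
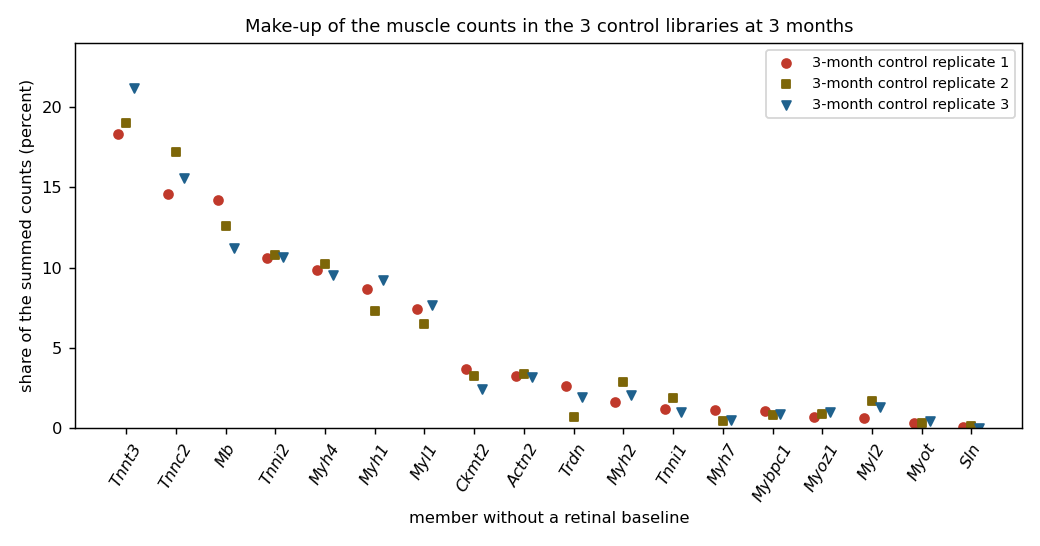
Share (percent) of the summed counts of the 18 members without a retinal baseline taken by each of them (x axis), with 1 marker per control library at 3 months. Tnnt3, Tnnc2 and Mb take the largest shares in replicate 1, and low genes such as Trdn (2.62%, 0.721% and 1.95%) differ between the libraries.

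KO against control retina at 12 months and KO retina at 12 against 3 months leave out the group whose values chose the members, and were tested with edgeR's quasi-likelihood model over all genes. The filter and the fit used all 12 libraries, so control retina at 3 months entered the estimate of spread, and 11 of the 36 members tested passed the filter only with that group. The results below therefore rest on the other 25. At 12 months 0 of these 25 members, and 0 of the 36, had an adjusted p below 0.05 by edgeR, where 35 of 16475 genes did, or 0.212%. With age in KO retina it was 0 of 25 and 0 of 36, where 390 of 16475 genes did, or 2.37%. In a fit of only the 9 libraries outside control retina at 3 months, 0 of 25 members were called in both, where 99 (0.608%) and 607 (3.73%) of 16283 genes were.

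Before adjustment, 5 and 0 of the 25 members had a p below 0.05 with edgeR, where 8.70% and 13.3% of all genes tested did. DESeq2 gave 5 and 0 and limma-voom 4 and 0, and both called 0 after adjustment. Over the 25 members the median log2 fold change was 0.02 at 12 months, with 13 higher and 12 lower in KO. It was -0.01 with age in KO retina, with 12 higher and 13 lower, and the median over all genes tested was 0.00 in both.

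Des had the smallest adjusted p at 12 months. With 43, 33 and 54 counts in control and 72, 80 and 84 in KO retina, its groups did not overlap, and its log2 fold change was 0.86 ± 0.22 (SE). It did not pass the threshold (adjusted p = 0.1426 by edgeR, 0.06136 to 0.5606 over the alternatives). Cacna1s had a log2 fold change of -0.27 ± 0.082 (SE), with 3 of 3 KO libraries below 3 of 3 control libraries and an adjusted p of 0.2874 by edgeR. Groups of Mylpf, Pgam2, Myh7, Tnnt1, Tnnc1 and Ryr1 did not overlap either. The share of all genes without overlap was not counted, so nothing is read from this. Mylpf at 0.52, Tnnt1 at -0.25 and Pvalb at -0.26 on the log2 scale were the others of the 25 with an unadjusted p below 0.05, and did not pass after adjustment. In the authors' deposited table of the same comparison, 27 members had an adjusted p and 0 of them were below 0.05, with the lowest at 0.2797 for Cacna1s, where 109 of 17139 genes were below 0.05, or 0.636%. In the authors' deposited table Des had an adjusted p of 0.2841.

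With age in KO retina, Myh7 had the smallest adjusted p of the 25 members, 0.4081 by edgeR (0.295 to 0.7711 over the alternatives). Its counts were 7, 9 and 4 at 3 months and 13, 18 and 13 at 12 months, with a log2 fold change of 1.11 ± 0.56 (SE). The groups did not overlap, and the difference did not pass the threshold. Groups of Casq1, Mybpc2, Pgam2 and Tnnc1, also among the 25, did not overlap either. The share of all genes without overlap was not counted here too, so nothing is read from the lack of overlap. Tnnt3, with 7, 42 and 10 and then 6, 4 and 0 counts, and Myl2, with 6, 0 and 0 and then 6, 4 and 14, are among the 11 members that passed the filter only with control retina at 3 months, and their tests are not given.

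**Figure D4:**
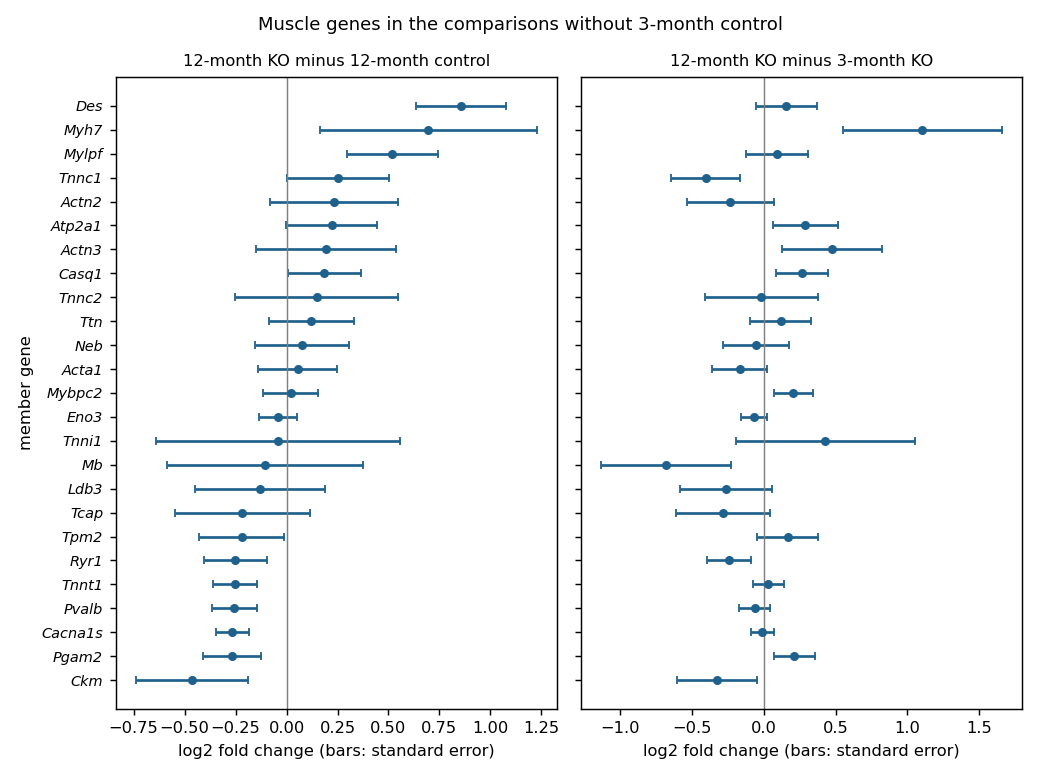
Log2 fold change (x axis) of the 25 members that passed the filter on the 9 libraries outside control retina at 3 months, for KO minus control at 12 months and for 12 minus 3 months in KO retina. Bars are standard errors, computed from the log2 fold change and edgeR's F statistic. Values lie on both sides of 0, and Des at 0.86 is the highest at 12 months.

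Other muscle genes were taken from lists that were not picked for how they moved here, though earlier results of these data were known. Over all genes tested, 1.26% stood above all other libraries in control retina at 3 months. Some listed genes passed the filter only with that group, among them Myh3, Xirp2, Trim54, Cox6a2 and the lens gene Lgsn. The counts of genes that stood above in these and the following lists are therefore descriptions without a test. Of lists for eye muscle and developing muscle, 1 of 6 tested genes stood above all other libraries in control retina at 3 months: Myh3, embryonic myosin, with 18 to 19 counts against 0 to 6. Myh13, the myosin of extraocular muscle, had 11, 6 and 4 counts against 0 to 6 and was not tested. The most abundant of that list were Myh7b at 21.1 ± 1.86 CPM, Actc1 at 4.50 ± 0.505 CPM and Tnnt2 at 1.30 ± 0.201 CPM (SD, n = 3), none of which stood apart.

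Of further sarcomere genes 2 of 17 stood above, Xirp2 and Trim54. Abundant genes there were Pdlim3 at 17.6 ± 2.39 CPM and Myom1 at 9.87 ± 0.425 CPM (SD, n = 3). Of genes of excitation and the muscle membrane 1 of 15 stood above, Hrc, and Cacnb1, Scn4a and Chrnb1 were the most abundant at 34.5, 32.7 and 9.07 CPM. Of genes of muscle energy 2 of 11 did, Cox6a2, a muscle subunit of cytochrome oxidase, with 90, 137 and 86 counts against 0 to 12, and Cox8b. Pfkm, Pygm and Adssl1 were the most abundant of these at 209, 156 and 36.1 CPM. Of myogenic and satellite cell genes 0 of 3 tested did, with Myf6 and Msc at 0.706 and 0.336 CPM, and Pax7, which marks satellite cells, had 0 counts in all 12 libraries. Among genes that did not pass the filter, 1 of this list and 1 of excitation and the muscle membrane also stood above.

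Lists for other tissues near the eye were read the same way. Of lens genes, 13 of 14 stood above all other libraries, and the list summed to 1388, 145548 and 5623 counts in control retina at 3 months against 299 to 984 elsewhere. Cryaa had 373, 57360 and 2002 counts there, Crybb2 298, 33883 and 1246 and Cryba1 137, 14247 and 598, so lens counts varied widely among libraries whose muscle sums were alike (2592, 2497 and 2206). The part of lens material in the muscle values was not tested. Of the tendon and connective tissue list, 1 of 8 stood above, Col3a1, with Scx, Fmod and Mkx the most abundant at 9.76, 8.25 and 5.84 CPM.

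None stood above in the lists for smooth muscle (0 of 6), heart (0 of 7), cornea and conjunctiva (0 of 6), pigment epithelium and melanocytes (0 of 9), blood (0 of 3), fat (0 of 1) and Schwann cells (0 of 5). In control retina at 3 months the most abundant were Smtn, Lmod1 and Acta2 at 14.3, 7.60 and 6.83 CPM, Ryr2, Actc1 and Nppa at 81.9, 4.50 and 1.37 CPM, and Aldh3a1, Krt12 and Krt15 at 9.58, 1.84 and 1.66 CPM. They were Ttr, Dct and Rpe65 at 55.6, 17.7 and 11.5 CPM for pigmented cells, and Hba-a2, Hba-a1 and Alas2 at 1.88, 1.25 and 0.617 CPM for blood. They were Plin1, Cfd and Adipoq at 0.248, 0.0560 and 0.0453 CPM for fat, and Sox10, Ncmap and Prx at 2.45, 2.32 and 1.86 CPM for Schwann cells. Aldh3a1 had 8, 814 and 36 counts and Acta2 117, 371 and 122, both with replicate 2 far above its group. The 16 genes of retinal cells, among them Gnat1 and Sag, held the tissue label in all 12 libraries, with 0 of 16 above and a sum of 44780 to 53176 CPM in control retina at 3 months and 47405 to 51362 CPM elsewhere.

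**Figure D5:**
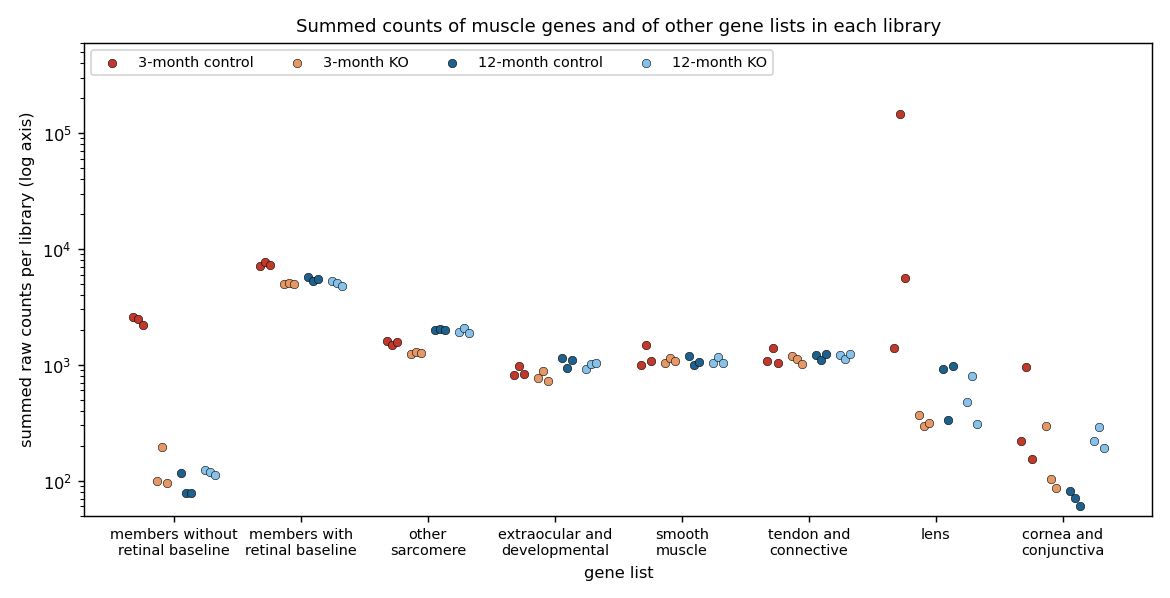
Summed raw counts per library (y axis, log scale) of the members without and with a retinal baseline and of other gene lists (x axis), with 1 point per library coloured by group. Control retina at 3 months is apart from the rest for the muscle members, with 2206 to 2592 counts against 78 to 194, and its lens counts spread from 1388 to 145548.

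The 10 genes outside the list named next had the pattern over the 12 libraries most like the summed members without a baseline, by Pearson's r of log2 CPM. They were ranked among 14009 genes with a mean of at least 1 CPM in control retina at 3 months, so genes nearly absent elsewhere could enter. The sum differs mainly between that group and the rest, the contrast that chose the members. The ranking is therefore a description, and nothing is read from it. The 10 genes were Crygb (r = 0.944), Agpat4 (0.918), Ctdspl (0.912) and Cox6a2 (0.908), then Crygd, Crygc, Cox8b, Lgsn, Trim47 and Fbll1. Of these, 4 are crystallin or lens genes (Crygb, Crygc, Crygd and Lgsn), and Cox6a2 and Cox8b are oxidase subunits of muscle and heart. The points share 4 groups of 3 libraries, and r was computed over all of them. Crygb was at 4.31 ± 5.53 CPM (SD, n = 3) in control retina at 3 months and 0.00762 CPM in the mean of the other 9, and Agpat4 at 10.6 ± 0.191 and 8.76 CPM.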

How the data were processed

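RNA of 12 retinal samples was sequenced as stranded poly(A) libraries, per the labels' protocols. The submitters' processing notes name HISAT2 2.1.0, featureCounts 1.6.4 and DESeq2 1.22.1, and the build GRCm38. For each library the authors deposited a table of raw read counts by Entrez ID. No strand or multi-mapping setting is given in the sources used here, and overlapping, antisense and near-identical genes are therefore uncertain. The table that the authors deposited for 12 months has no header. Its columns were read as a mean normalized count (signal), a log2 fold change, its standard error, a Wald score, a p-value and an adjusted p-value, all as deposited by the authors.

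Of 27179 IDs, 25275 were named from RefSeq. The members and gene lists were chosen with earlier results of these data known. Full values are given for members with a mean of at least 5 CPM in any group or called in a test. The other members are given by range, and from each other list the 3 most abundant genes in control retina at 3 months and those called, a few of which are not reported here. Xirp2, Trim54, Hrc, Myh3, Myh13, Cox6a2, Cox8b, Col3a1 and Pax7 were named after their values were seen. Genes passing filterByExpr (16475) were fitted over all 12 libraries, with TMM scaling and 1 coefficient per group, by edgeR 4.0.16 (robust glmQLFit and glmQLFTest) in R 4.3.3, with Benjamini-Hochberg adjustment and a threshold of 0.05. The SE of a log2 fold change was its absolute value divided by the square root of edgeR's F statistic. Sln and Myot did not pass the filter. The model was tested on simulated counts. Alternatives included DESeq2 1.42.0, limma 3.58.1 (voom), other scalings and filters, fewer libraries, halved counts, a replicate block and each library left out. Promoter windows came from RefSeq (GRCm38.p6).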

Additional observations from a re-analysis of the deposited data

How the results depend on the processing

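The count of 0 members called held in both tested comparisons under all 23 alternatives, with 24 to 38 members tested. The number of all genes called moved, and the cause was not tested. For KO against control at 12 months it was 35, and it became 64 with nearly no filter, 131 with DESeq2, 99 with only the 9 libraries outside control retina at 3 months, 66 at a threshold of 0.1, and 13 to 166 with 1 library left out (166 without control replicate 2 at 3 months, 13 without control replicate 2 at 12 months, 15 without KO replicate 3 and 23 without control replicate 1 at 12 months). For KO retina at 12 against 3 months it was 390, and it became 598 with DESeq2, 607 with only those 9 libraries, and 187 to 717 with 1 library left out (717 without control replicate 2 at 3 months, 217, 190 and 187 without KO replicates 1, 2 and 3 at 3 months, and 228 without KO replicate 2 at 12 months). With the replicate number as a block (replicate block) 40 and 368 genes and 0 and 0 members were called. Between groups, the deviations of same-numbered libraries correlated at -0.147 to 0.223 and those of other-numbered libraries at -0.189 to 0.164. The own number was the best match in every other group for 0 libraries. That condition is too strict to tell whether the numbers pair samples, which was not settled. The summed level of the members without a baseline in control retina at 3 months was 81.8 CPM, 78.7 to 85.9 CPM with 1 library left out and 66.0 CPM without Tnnt3. The members' share of counts was 0.0282% there without Eno3. With limits of 0.5 and 2 CPM in place of 1 CPM and other settings, 14 to 21 members had a baseline. Depth limits the members at 0 to 20 counts, where the reads of a pair may have been counted separately.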

Other observations

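Csrp3, Pygm and Adssl1, from the other muscle lists, rose between 3 and 12 months in KO retina, in a comparison in which none of the 36 members tested was called. Csrp3, muscle LIM protein, which binds the Z-disc, had 119, 129 and 131 counts at 3 months and 849, 769 and 661 at 12 months. Its mean level was 4.29 ± 0.237 CPM and 25.4 ± 2.82 CPM (SD, n = 3), with a log2 fold change of 2.57 ± 0.13 (SE) and an adjusted p of 1.141e-10 by edgeR. In control retina Csrp3 had 107, 118 and 105 counts at 3 months and 720, 855 and 732 at 12 months, so the 3-month control libraries lay with the KO libraries of that age. Pygm, the glycogen phosphorylase of muscle, and Adssl1, a muscle enzyme of purine synthesis, rose by less, with log2 fold changes of 0.29 and 0.37 and adjusted p of 0.04237 and 0.04285 by edgeR. In KO against control retina at 12 months Csrp3, Pygm and Adssl1 were not called, with adjusted p of 0.9757, 0.8307 and 0.7521 by edgeR.

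Of the lists for other cells, Rpe65, the visual cycle isomerase of the pigment epithelium, fell by 0.68 on the log2 scale in KO retina with age (adjusted p = 0.03263 by edgeR). No other of the 9 tested genes of its list was called, and the median log2 fold change of the list was 0.11. Arr3, cone arrestin, fell by 0.31 on that scale (adjusted p = 0.009 by edgeR), with 8740, 8773 and 8693 counts at 3 months and 7377, 6979 and 6981 at 12 months. Opn1sw, a cone opsin of the same list, was at 0.02 (adjusted p = 0.9586 by edgeR). Control retina was not compared between the ages here, and no change of a cell type is read from single genes.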
